A study of Rattus norvegicus with 4 samples.

Results

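The genes described here are those that carry out or restrain programmed cell death: apoptosis, necroptosis and pyroptosis. They are defined by gene symbol, as caspases, BCL2 family genes, inhibitor of apoptosis genes, gasdermins and RIP kinases, together with 16 single genes such as Bax, Bid, Fadd, Cflar, Apaf1 and Mlkl. This choice took in 44 of the 17853 genes deposited, and for 34 of these 44 the RPKM averaged 1 or more. Mcl1 and Bbc3, also on the list of single genes, had no values under these symbols among the genes deposited and so were not analysed here. RPKM are read numbers corrected for gene length and for the mapped reads of a library, so levels can be compared between genes. Between libraries they do not correct for differences in make-up, such as the mitochondrial shares given below.

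Brain tissue came from rats that had bled into the brain (intracerebral hemorrhage) and was taken on the side of the bleeding (ipsilateral) and on the opposite side (contralateral). The rats were 13 months old, called adult, or 21 months old, called old, and all 4 groups carried the hemorrhage. No group without a hemorrhage was analysed here, so the opposite side of injured animals is the only reference. Each of the 4 groups was 1 polyadenylated RNA library made from RNA pooled over several rat brains. The labels used here name no strain, hemorrhage model or time after the bleeding.

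In apoptosis, initiator caspases are activated on protein platforms and then cleave effector caspases, which dismantle the cell. Platforms form below death receptors such as Fas and the TNF receptor, or around APAF1 once pore-forming BCL2 proteins have let cytochrome c out of mitochondria. In necroptosis the kinases RIPK1 and RIPK3 pass the signal to MLKL, which breaks the plasma membrane, and in pyroptosis inflammatory caspases cleave gasdermin D into a pore. After a bleeding into the brain, these forms of cell death are studied in neurons, glia and invading blood cells alike.

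Read counts were not part of the data and the depth is therefore unknown. The smallest value above 0, 0.01 RPKM in every library was the rounding step itself. Mitochondrially encoded genes took 18.5% and 20.6% of all RPKM ipsilaterally, 13 months first, and 23.3% and 24.1% contralaterally. Among markers of cell types, 5 of the 7 listed for monocytes and macrophages rose ipsilaterally by limma's moderated test, which is described below. Their summed level was 638 and 313 RPKM ipsilaterally, at 13 and 21 months, and 61.1 and 34.0 RPKM contralaterally, most of it Lyz2. Of 7 microglia markers 5 rose, from sums of 90.3 and 83.3 RPKM contralaterally to 239.5 and 209 RPKM ipsilaterally. Neutrophil markers, of which 3 of 8 passed the filter and rose, summed to 61.8 and 37.2 RPKM ipsilaterally and to 4.83 and 8.62 RPKM contralaterally. Most of this sum was S100a8 and S100a9. Of those under the filter, Cxcr2 and Mmp8 were higher ipsilaterally at both ages and Mpo did not exceed 0.04 RPKM. Ngp went the other way, at 0.06 RPKM ipsilaterally at both ages and at 0.17 and 0.21 RPKM contralaterally. The 2 of 8 T and NK cell markers that passed the filter, Cd4 and Cd8a, rose. The 8 summed to 41.8 and 29.1 against 6.74 and 6.96 RPKM, most of it Cd4 and Cd8a. Under the filter, Cd3d, Cd3e and Cd3g were at 1.6, 1.11 and 1.47 RPKM ipsilaterally at 13 months (0.32, 0.28 and 0.05 RPKM contralaterally). At 21 months they were at 0.39, 0.51 and 0.2 RPKM (0.04, 0.32 and 0.1 RPKM contralaterally). B cell markers stayed under the filter. Neuron markers, 1 of 7 of which fell, summed to 1077 and 1217 RPKM ipsilaterally and to 1509 and 1483 RPKM contralaterally. Astrocyte markers, of which Gfap alone of 6 rose, summed to 1582 and 1654 against 855 and 730 RPKM, Gfap taking 1151 and 1225 against 443 and 340 RPKM, and oligodendrocyte markers, none of 6 called, to 1869 and 2555 against 2257 and 2145 RPKM, so the brain markers were all present. Choroid plexus markers, 4 of 5 of which fell, summed to 671 and 1068 against 1223 and 1799 RPKM, and endothelial markers, 0 of 3 called, to 12.3 and 11.0 against 10.0 and 11.4 RPKM. None of the markers matched was at 0 in all libraries, and Ccr2, Cxcr2 and Gzmb were at 0 in 1 contralateral library each. In whole tissue, a higher share of a cell type and more RNA per cell cannot be told apart, and the part that these cells had in the values below was not tested.

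The sides were compared to ask how the injured tissue differed from the opposite side at each age. A set of 7 genes stood at 2-fold or more higher on the ipsilateral side at both ages, on the log2(RPKM + 1) scale that is used for all ratios below. They were the survival gene Bcl2a1 (ENSRNOG00000047606, chromosome 8) and the ubiquitin ligase gene Birc3 (ENSRNOG00000005731, chromosome 8). Among them too were the necroptosis genes Ripk3 (ENSRNOG00000020465, chromosome 15) and Mlkl (ENSRNOG00000042353, chromosome 19). The others were the caspase genes Casp4 (ENSRNOG00000033697, chromosome 8) and Casp8 (ENSRNOG00000012331, chromosome 9) and the mitochondrial pore gene Bak1 (ENSRNOG00000000485, chromosome 20). At 13 months 10 of the 34 genes that passed the filter had a log2 ratio of at least 1, where 7.19% of all 12160 genes that passed had one. At 21 months 8 of 34 did, against 5.61% of all genes, and both ages together gave the 7 genes named, against 4.75%. No gene of the 34 was lower by as much at either age, where 0.0658% and 0.288% of all genes were. The median log2 ratio of the 34 genes was 0.60 at 13 months and 0.58 at 21 months, beside 0.01 and 0.09 for all genes. These counts move with the added constant: with 5 RPKM added in place of 1, 4 genes passed the 2-fold line at 13 months and 1, Bcl2a1, at 21 months, where 3.37% and 2.25% of all genes did. At 21 months the 1 of 34 is thus near the share of all genes.

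Genes passed on their mean over the 4 libraries, and Bcl2, Bcl2l12, Bmf, Mlkl and Tradd had a contralateral mean under 1 RPKM, so that their ipsilateral values carried them over the line. Of these 5 genes 4, all but Bcl2, are among the calls given below. Counts over the genes that passed therefore describe those genes and are no support for a direction of the whole set. Over all 44 genes with no filter, 10 and 8 had a log2 ratio of at least 1, where 5.24% and 3.93% of all 17853 genes did, and the 44 had median ratios of 0.43 and 0.33, beside 0.0 and 0.04 for all.

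With 1 library per group no side comparison at a single age carries a test. As a secondary summary, limma, a linear model with moderated variances, was fitted to side and age over all 4 libraries. It called 18 of the 34 genes higher ipsilaterally at a Benjamini-Hochberg adjusted p under 0.05, where 13.3% of all genes tested were called higher. In the other direction it called 0 of 34 (0 also at an unadjusted p under 0.05), where 0.814% of all genes were called lower. Below, "rose" is used of these 18 calls only. The fit has 1 residual degree of freedom, namely the difference of the side ratio between the ages. Its standard errors of 0.17 to 0.20 come largely from a spread pooled over genes. When low genes were kept in, limma called 0 genes of all those deposited, although 23 of the 44 were higher at an unadjusted p under 0.05, as were 14.8% of all genes.

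**Figure D1:**
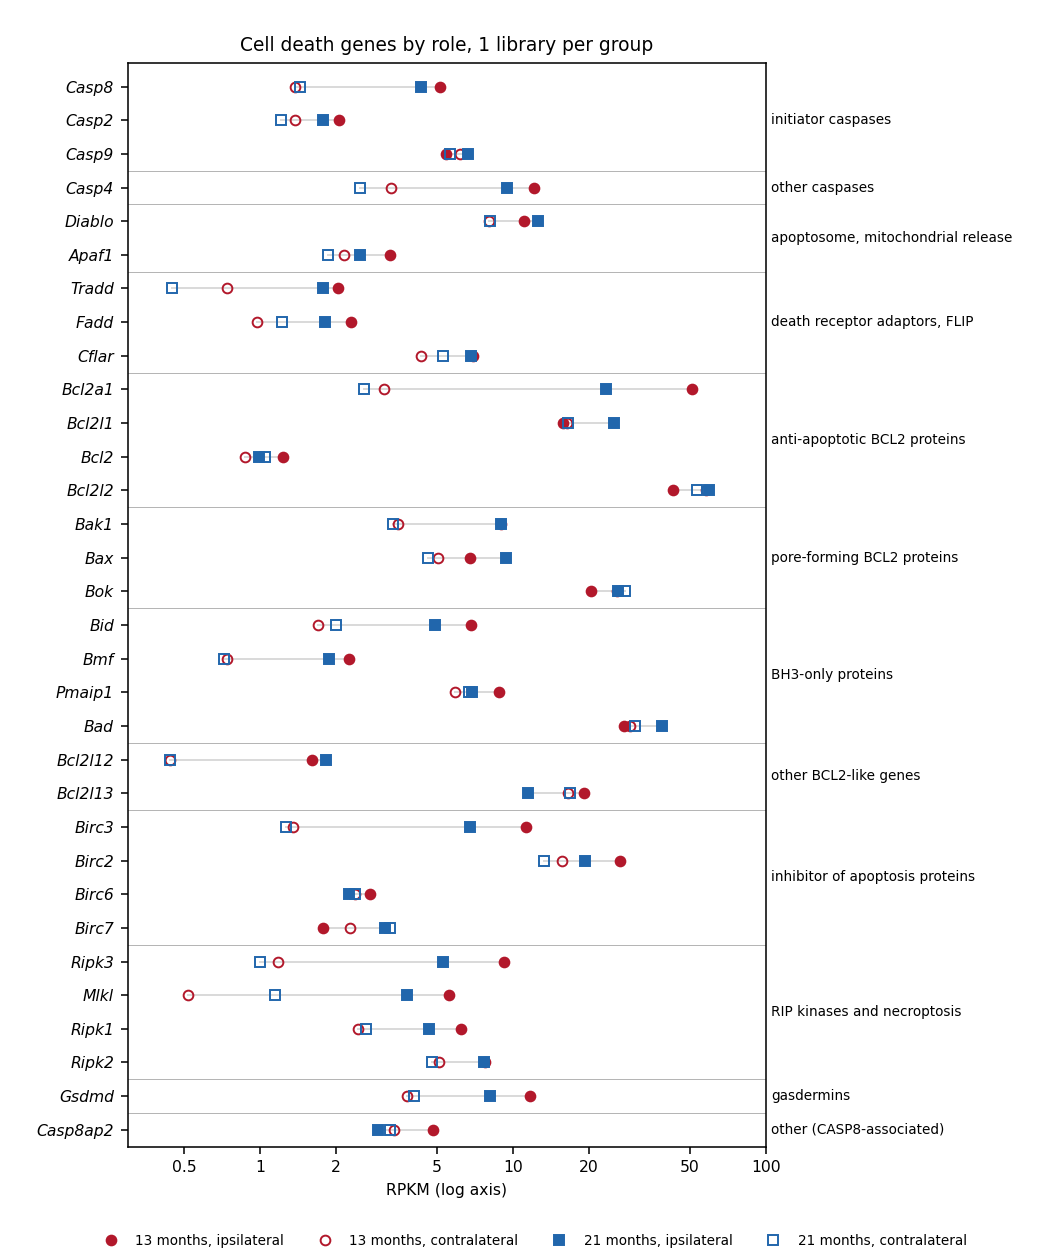
RPKM on a log axis for 32 of the cell death genes that passed the filter, grouped by role, with 1 point per library (filled, ipsilateral; open, contralateral; circles, 13 months; squares, 21 months). Both filled points lie to the right of both open ones for 22 genes, among them Bcl2a1, Birc3, Ripk3, Mlkl, Casp4, Casp8 and Bak1, while the points of Casp9, Bcl2, Bcl2l2 and Bok overlap.

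Over all genes that passed, both ipsilateral values exceeded both contralateral values for 24 of the 34 genes, where 34.4% of all genes did so. The ranges overlapped for 10, and 0 of 34 had both ipsilateral values below, where 22.1% of all genes had.

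Among the initiator caspases, Casp8 rose and Casp2 and Casp9 did not pass. Casp8, the caspase of death receptor complexes, was at 5.15 and 4.34 RPKM ipsilaterally, 13 months first, and at 1.37 and 1.44 RPKM contralaterally. The opposite sides thus lay close together and well below the injured ones, at log2 ratios of 1.38 and 1.13 (fitted change 1.25 ± 0.17, SE, adjusted p = 9.14e-06 in limma). Casp9, which the APAF1 platform activates, was at 5.41 and 6.63 RPKM ipsilaterally and at 6.19 and 5.63 RPKM contralaterally, so its sides overlapped. Casp2, a caspase linked to DNA damage and metabolic stress, had 2.06 and 1.78 RPKM against 1.37 and 1.21 RPKM, and its ratios of 0.37 and 0.33 did not pass (adjusted p = 0.22 in limma). Casp8ap2, a CASP8-associated protein gene that the symbol choice also takes in, was at 4.83 and 2.93 RPKM ipsilaterally and at 3.37 and 3.26 RPKM contralaterally.

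Casp4, the rodent inflammatory caspase that senses intracellular endotoxin and cleaves gasdermin D, had almost the same ratio at both ages. It was at 12.1 and 9.48 RPKM ipsilaterally and at 3.30 and 2.49 RPKM contralaterally, with log2 ratios of 1.61 and 1.59 (1.60 ± 0.17, SE, adjusted p = 2.60e-07 in limma). Casp12 was under 1 RPKM in every library (0.57 to 0.95 RPKM), and Casp14, a caspase of skin, was at 0.01 RPKM in the 21 month ipsilateral library and listed at 0 in the others. The gasdermin D gene Gsdmd rose with 11.6 and 8.09 RPKM ipsilaterally against 3.81 and 4.05 RPKM contralaterally. Its log2 ratios were 1.39 and 0.85 (1.12 ± 0.18, SE, adjusted p = 6.92e-05 in limma). Gsdma, a gasdermin of epithelia, stayed between 0.41 and 0.67 RPKM.

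A further gasdermin gene is listed under an older symbol, Dfna5, which the RefSeq gene table gives as a synonym of Gsdme, and so falls outside the symbol choice. It was looked up after the other values had been seen. Dfna5, whose protein effector caspases can cleave into a pore, had 3.51 and 4.04 RPKM ipsilaterally and 4.65 and 4.85 RPKM contralaterally. Both injured sides were thus below both opposite sides, but the fitted change of -0.27 ± 0.17 (SE) did not pass (adjusted p = 0.37 in limma).

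All 4 RIP kinase and necroptosis genes that passed the filter rose, where 13.3% of all genes tested were called higher. Mlkl passed the filter through its ipsilateral values. Ripk3, the kinase that commits a cell to necroptosis, was at 9.19 and 5.29 RPKM ipsilaterally and at 1.18 and 1.0 RPKM contralaterally. Its log2 ratios were 2.22 and 1.65 (1.94 ± 0.18, SE, adjusted p = 3.97e-08 in limma). Mlkl, which encodes the membrane-breaking effector, was at 5.59 and 3.82 RPKM ipsilaterally and at 0.52 and 1.15 RPKM contralaterally. The contralateral values of Mlkl differed between the ages more than those of Ripk3, and its ratios were 2.12 and 1.17 (1.64 ± 0.20, SE, adjusted p = 1.80e-06 in limma). Ripk1, the receptor-proximal kinase, was at 6.24 and 4.65 RPKM against 2.43 and 2.62 RPKM, with ratios of 1.08 and 0.64 (adjusted p = 0.00107 in limma). Ripk3 was at 0.486 and 0.382 times the level of Ripk1 contralaterally and at 1.47 and 1.14 times ipsilaterally, so that the order of both kinases was reversed at both ages. Ripk2, a kinase of the NOD receptors and not of necroptosis, was at 7.77 and 7.66 RPKM against 5.10 and 4.77 RPKM (0.55 ± 0.17, SE, adjusted p = 0.0285 in limma). Ripk4, a kinase of epithelia, did not exceed 0.24 RPKM.

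To show a stretch that lies before one of these genes, the promoter table of RefSeq (assembly GRCr8) was searched for 3 motifs in the 250 bases before the start site. It held 29 of the 44 genes, Ripk3, Mlkl, Ripk1, Bid, Bak1 and Bcl2a1 among them, and not Casp4, Casp8 or Birc3. The AP-1 motif was searched as TGANTCA, in which N is any base and which reads the same on both strands. It was found in 4 of the 29 (Bcl2a1, Birc2, Diablo and Ripk3), where 6.36% of all 27457 promoters held it. The interferon-stimulated motif, a pair of GAAA with any 2 bases between them, was found in 1 of 29, Casp12, against 3.29% of all promoters. The NF-kB motif GGGNNTTCC was found in 2 of 29, Birc7 and Pmaip1, against 5.16%, both of these motifs being searched on both strands. The stretch before Ripk3 is shown because the gene had the highest side ratios of the necroptosis genes with 1 RPKM added. With 0.1 RPKM added, Mlkl was higher at 13 months (3.20 against 2.86). The stretch lies at chr15:33262033-33262139 of GRCr8 on the minus strand, with the AP-1 letters in capitals, the first of them 64 bases before the start.
Ripk3: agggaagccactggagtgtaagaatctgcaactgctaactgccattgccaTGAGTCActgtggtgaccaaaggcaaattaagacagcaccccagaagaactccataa
A match of letters is a description and no evidence that a factor binds there. Only these fixed letters were searched, so a window without a match may still hold another form of a site.

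The anti-apoptotic BCL2 genes behaved unlike each other. Bcl2a1, an NF-kB-induced survival gene of blood cells, had the highest side ratios of all 44 genes, with 50.8 and 23.4 RPKM ipsilaterally and 3.10 and 2.58 RPKM contralaterally. Both injured sides were far above the opposite ones, at log2 ratios of 3.66 and 2.77 (3.21 ± 0.20, SE, adjusted p = 7.23e-11 in limma). Bcl2l2, the survival gene for BCL-w, was the most abundant of the 44 genes contralaterally, at 57.9 and 53.3 RPKM, and stood there above 94.3% of all genes of the table at 13 months. Its ipsilateral values of 43.0 and 59.5 RPKM lay below the opposite side at 13 months and above it at 21 months. Bcl2l1, which encodes BCL-xL, was at 15.8 and 25.1 RPKM ipsilaterally and at 16.4 RPKM contralaterally at both ages, so that the 21 month injured side alone stood apart. Bcl2 itself was low throughout, from 0.87 to 1.23 RPKM, and Bcl2l10 did not exceed 0.13 RPKM. Of the 4 that passed the filter, Bcl2l2, Bcl2l1 and Bcl2 were not called, with adjusted p of 0.73, 0.42 and 0.78 in limma.

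The sum of these 5 anti-apoptotic genes was 111 and 109 RPKM ipsilaterally and 78.2 and 73.4 RPKM contralaterally. It does not include Mcl1, a further anti-apoptotic gene, so the shares below are of these 5 only. Bcl2a1 took 3.96% and 3.51% of this sum contralaterally, and 45.8% and 21.4% ipsilaterally, 13 months first. Bcl2l2 took 74.0% and 72.6% contralaterally and 38.8% and 54.5% ipsilaterally. At 13 months Bcl2a1 was thus the most abundant of these genes on the injured side, at 1.18 times the level of Bcl2l2, whereas at 21 months it stood at 0.393 times. The stretch of 76 bases that opens the promoter window of Bcl2a1, at chr8:98596556-98596631 of GRCr8 on the plus strand, is shown because this gene led the set. Its letters that match TGANTCA, with A in the open place, are in capitals, the first of them 231 bases before the start.
Bcl2a1: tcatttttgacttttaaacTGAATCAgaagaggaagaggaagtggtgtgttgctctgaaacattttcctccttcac

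**Figure D2:**
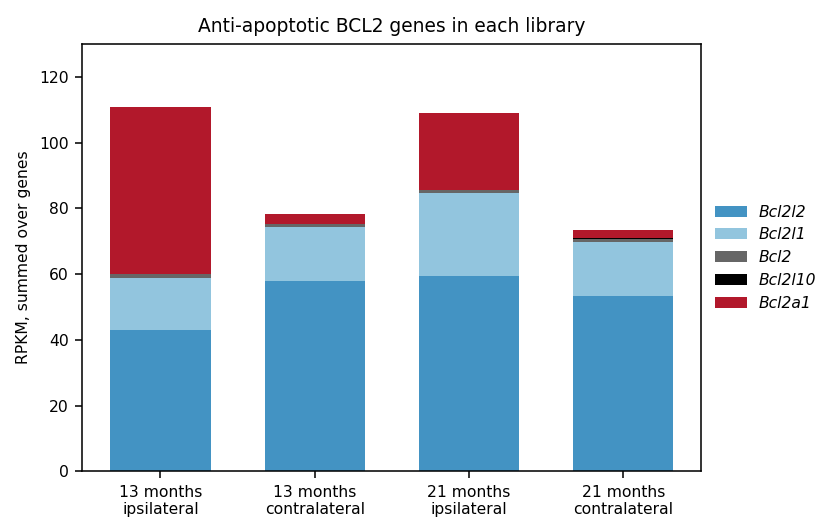
Stacked bars of the RPKM of 5 anti-apoptotic BCL2 genes, without Mcl1, in each library, on a linear axis from 0. The injured sides sum to 111 and 109 RPKM and the opposite sides to 78.2 and 73.4 RPKM. At 13 months Bcl2a1 (50.8 against 3.10 RPKM) differs by more than the sums do, while Bcl2l2 is lower on the injured side (43.0 against 57.9 RPKM).

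The pore-forming BCL2 genes Bak1 and Bax rose and Bok did not. Bak1 was at 8.94 and 8.99 RPKM ipsilaterally and at 3.51 and 3.34 RPKM contralaterally, nearly equal values at both ages, with log2 ratios of 1.14 and 1.20 (1.17 ± 0.17, SE, adjusted p = 1.90e-05 in limma). Bax was at 6.75 and 9.38 RPKM ipsilaterally and at 5.04 and 4.61 RPKM contralaterally, with the 21 month injured side highest (ratios 0.36 and 0.89, adjusted p = 0.0188 in limma). Bok, the third gene of this kind and the most abundant, was at 20.3 and 26.0 RPKM ipsilaterally and at 25.8 and 27.6 RPKM contralaterally. Bok stood at 7.34 and 8.26 times the level of Bak1 on the opposite sides and at 2.27 and 2.89 times on the injured sides. The ratio of Bax to Bcl2, often used as a death index, was 5.49 and 9.47 ipsilaterally and 5.79 and 4.39 contralaterally, so that it was higher on the injured side at 21 months and slightly lower at 13 months. With Bcl2l1 in place of Bcl2, the ratio was 0.427 and 0.373 ipsilaterally and 0.308 and 0.281 contralaterally, higher on the injured side at both ages.

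BH3-only proteins switch the pore formers on or neutralise the survival proteins. Of the 4 genes that passed the filter 2 rose, where 13.3% of all genes tested were called higher. Of these 2, Bmf passed the filter through its ipsilateral values. Bid, which CASP8 cleaves to link death receptors to mitochondria, was at 6.85 and 4.93 RPKM ipsilaterally and at 1.69 and 2.0 RPKM contralaterally. Its log2 ratios were 1.55 and 0.98, the latter just under the 2-fold line (1.26 ± 0.18, SE, adjusted p = 1.58e-05 in limma). Bmf was at 2.25 and 1.88 RPKM against 0.74 and 0.72 RPKM (0.82 ± 0.17, SE, adjusted p = 0.00119 in limma). Pmaip1, also called Noxa, was at 8.81 and 6.86 RPKM against 5.89 and 6.71 RPKM and did not pass, and its 21 month ratio of 0.03 turned negative under both other scalings tried (-0.07 in each). Bad, the most abundant of them, was at 27.4 and 38.6 RPKM ipsilaterally and at 29.0 and 30.4 RPKM contralaterally, with overlapping sides. Bcl2l11, which encodes BIM, reached 1.05 RPKM in the 13 month ipsilateral library and lay between 0.52 and 0.64 RPKM in the others, and Bik did not exceed 0.03 RPKM.

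Of the other BCL2-like genes, Bcl2l12 rose from 0.44 RPKM on the opposite side at both ages to 1.60 and 1.83 RPKM on the injured side (0.91 ± 0.17, SE, adjusted p = 0.00038 in limma). Bcl2l13, an outer mitochondrial membrane protein gene with a role in mitophagy, was at 19.0 and 11.4 RPKM ipsilaterally and at 16.4 and 16.9 RPKM contralaterally. The 21 month injured side was thus the lowest of the 4, at a log2 ratio of -0.52, the lowest of the set. Bcl2l14 was low but uneven between the sides, with 0.77 and 0.61 RPKM ipsilaterally and 0.06 and 0.11 RPKM contralaterally. Bcl2l15 and the pseudogene Bcl2l1-ps1 stayed at or under 0.48 RPKM.

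Of 4 inhibitor of apoptosis genes Birc2 and Birc3 rose, where 13.3% of all genes tested were called higher. Birc3, a ubiquitin ligase of TNF receptor complexes and a known NF-kB target, was at 11.2 and 6.77 RPKM ipsilaterally and at 1.35 and 1.27 RPKM contralaterally. With log2 ratios of 2.38 and 1.78 it was next to Bcl2a1 at both ages (2.08 ± 0.18, SE, adjusted p = 1.60e-08 in limma). This order depended on the added constant: with 0.1 RPKM in place of 1, Mlkl stood above Birc3 at 13 months (3.20 against 2.97). Birc2, the neighbour and close relative of Birc3, was more abundant and differed less, at 26.5 and 19.2 RPKM against 15.6 and 13.2 RPKM (0.62 ± 0.17, SE, adjusted p = 0.0146 in limma). Birc3 was at 0.0865 and 0.0962 times the level of Birc2 contralaterally and at 0.424 and 0.353 times ipsilaterally. Birc6, a large ubiquitin ligase, lay between 2.25 and 2.71 RPKM with overlapping sides. Birc7 was at 1.77 and 3.11 RPKM ipsilaterally and at 2.27 and 3.27 RPKM contralaterally, higher at 21 than at 13 months on both sides, and was not called.

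The adaptors that join death receptors to CASP8 were low but higher on the injured side. Both rose, where 13.3% of all genes tested were called higher, and Tradd passed the filter through its ipsilateral values. Tradd, the TNF receptor adaptor, was at 2.03 and 1.78 RPKM ipsilaterally and at 0.74 and 0.45 RPKM contralaterally (0.87 ± 0.17, SE, adjusted p = 0.00066 in limma). Fadd was at 2.29 and 1.80 RPKM against 0.97 and 1.22 RPKM (0.54 ± 0.17, SE, adjusted p = 0.0423 in limma). Cflar, which encodes the CASP8 inhibitor FLIP, was at 6.96 and 6.80 RPKM against 4.31 and 5.29 RPKM and did not pass (adjusted p = 0.0991 in limma). Casp8 stood at 0.318 and 0.272 times the level of Cflar contralaterally and at 0.740 and 0.638 times ipsilaterally. On the mitochondrial arm, Apaf1 had 3.25 and 2.49 RPKM against 2.14 and 1.85 RPKM, and Diablo, an antagonist of the inhibitors of apoptosis, 11.1 and 12.5 RPKM against 8.0 and 8.10 RPKM. Neither passed, at adjusted p of 0.20 and 0.055 in limma.

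How reads were assigned between related genes, such as Birc2 and Birc3, Casp4 and Casp12 or Bcl2l1 and its pseudogene, is not stated in the labels. The calls of Bax, Birc2, Fadd and Ripk2 ended when mitochondrially encoded genes were taken out and the libraries rescaled. With 5 RPKM added in place of 1 these 4 calls and those of Bcl2l12, Bmf, Ripk1 and Tradd ended.

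**Figure D3:**
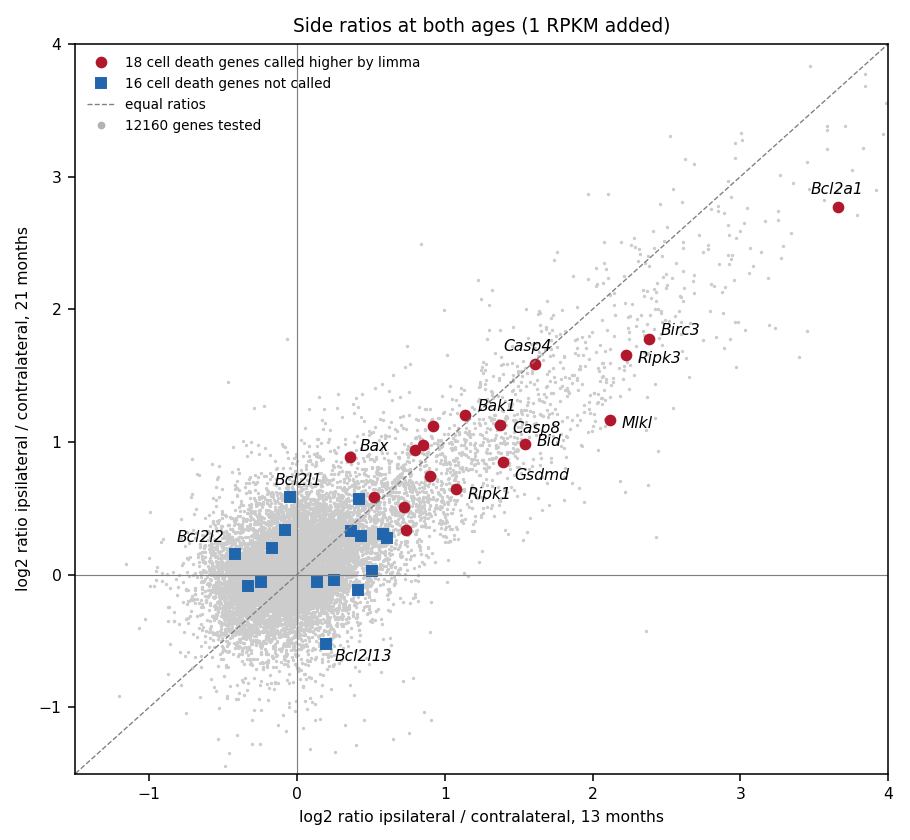
Side ratio (ipsilateral over contralateral, log2 of RPKM + 1) at 13 months (x axis) and 21 months (y axis), for the 34 cell death genes over all 12160 genes tested (grey), 23 of which lie outside the axes. The 18 genes called higher by limma (red circles) all lie above 0 at both ages, Bcl2a1 at 3.66 and 2.77, and of the 16 not called (blue squares) Bcl2l13 is lowest on the y axis at -0.52.

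The ages were compared to ask whether the injured and the opposite tissue differed between adult and old rats. On the ipsilateral side 1 of 34 genes was lower at 21 months by a log2 ratio of at least 1, where 0.658% of all genes were, and 0 of 34 were higher, where 0.321% of all genes were. That gene was Bcl2a1, with a log2 ratio of -1.09 between the ages. Next to it on the injured side came Ripk3 (-0.70), Bcl2l13 (-0.69) and Birc3 (-0.65), all lower at 21 months by less than 2-fold. At the other end stood Bcl2l1 (0.64), Birc7 (0.57) and Bad (0.48), higher at 21 months. On the contralateral side 0 of 34 genes passed the 2-fold line in either direction, where 0.206% of all genes were higher and 0.132% lower at 21 months. The median ratio of the 34 genes between the ages was -0.18 ipsilaterally and 0.0 contralaterally, beside 0.03 and -0.03 for all genes.

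The side ratio was smaller at 21 than at 13 months for 12 of the 18 genes that rose and larger for 6. It was larger for 55.7% of all genes tested, and the share among all genes that limma called higher was not computed. Among the 18, the smaller ones included Mlkl (by 0.95 on the log2 scale), Bcl2a1 (0.89), Birc3 (0.60), Ripk3 (0.57), Bid (0.56) and Gsdmd (0.55). The larger ones included Bax (0.53), Tradd (0.14), Bcl2l12 (0.12), Bak1 (0.06) and Ripk2 (0.06). Over all 34 genes the median difference was -0.17, beside 0.05 for all genes tested. Monocyte and macrophage markers summed to less at 21 than at 13 months on both sides (313 against 638 RPKM ipsilaterally and 34.0 against 61.1 RPKM contralaterally), and their median side ratio was 3.18 at 21 and 3.43 at 13 months. For microglia markers that median was 1.38 at 21 and 1.16 at 13 months. Without replicates the differences between the ages carry no test, and the age ratios share their libraries with the side ratios.

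Genes above and beside these in the same pathways were described from fixed lists, whose counts stand beside the 13.3% of all genes tested that limma called higher. Of 6 measured death receptors and ligands 3 rose, namely the receptor genes Fas and Tnfrsf1a and the ligand gene Tnfsf12. Fas was at 3.60 and 2.27 RPKM ipsilaterally and at 0.64 and 0.70 RPKM contralaterally, and Tnfrsf1a at 13.5 and 9.59 RPKM against 4.43 and 5.38 RPKM. The lowest of the list were the receptor gene Tnfrsf25 at log2 ratios of 0.07 and -0.04 and the ligand gene Tnfsf10 (TRAIL) at -0.07 and 0.12. Of 18 genes that link TNF receptors to NF-kB 6 rose, with the subunit gene Nfkb2 (1.72 and 1.70) and the feedback inhibitor gene Tnfaip3 (1.59 and 1.54) highest by their mean. Cyld, a deubiquitinase (-0.03 and -0.22), and Traf3 (-0.14 and -0.12) were lowest and were not called.

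Inflammasomes are the platforms that mature interleukin 1 beta and set off pyroptosis, and 9 of 10 genes of this list that passed the filter rose, at median log2 ratios of 1.65 and 1.17. Of these 9, Il1a, Mefv, Naip6, Nlrc4 and Nlrp3 had a contralateral mean under 1 RPKM and so passed the filter through the side where they were high, which also holds for Fas. Il1b was at 51.8 and 25.6 RPKM ipsilaterally and at 3.75 and 0.87 RPKM contralaterally. Pycard, the adaptor ASC, was at 18.2 and 15.7 RPKM against 2.91 and 4.05 RPKM. The lowest were Naip6 (1.20 and 0.95), which rose, and the NLRP3 partner gene Nek7 (0.01 and 0.23), which did not pass. Of 7 genes of necroptosis and nucleic acid sensing that passed 5 rose, 2 of which (Mb21d1 and Tmem173) passed through the ipsilateral side in the same way. Ninj1, which ruptures the plasma membrane late in cell death, was at 32.3 and 21.3 RPKM against 6.67 and 6.40 RPKM. Zbp1, a nucleic acid sensor that engages RIPK3, was at 5.15 and 6.51 RPKM against 1.0 and 1.24 RPKM. Tlr3 (0.65 and 0.34) and the mitochondrial phosphatase gene Pgam5 (-0.05 and -0.24) did not pass.

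In the list of mitochondrial death factors and nucleases 0 of 14 genes were called, at median ratios of 0.06 and 0.09, close to the 0.01 and 0.09 of all genes. Of these 14 genes, Parp1, a DNA damage sensor that caspases cleave, came highest at 0.58 and 0.41 (adjusted p = 0.057 in limma), and Htra2 followed at 0.18 and 0.31. The mitophagy receptor genes Bnip3 (-0.19 and -0.10) and Bnip3l (-0.05 and -0.15) were lowest. Cycs, which encodes cytochrome c, was at 74.6 and 87.0 RPKM ipsilaterally and at 85.0 and 79.9 RPKM contralaterally, and was looked up after the other values had been seen. No difference between the lists was tested.

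**Figure D4:**
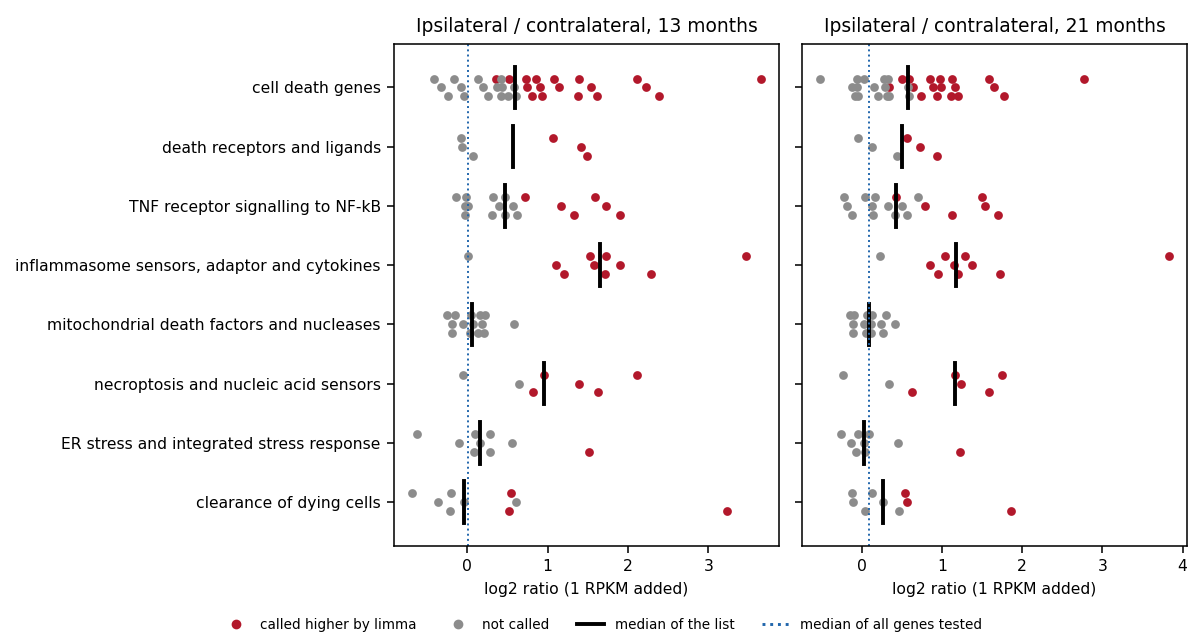
Log2 side ratios at 13 months (left) and 21 months (right), 1 point per gene that passed the filter, for the cell death genes and 7 related lists, with the median of each list (black bar) and of all genes tested (dotted line). Inflammasome genes have the highest median at both ages (1.65 and 1.17, the latter close to the 1.17 of the necroptosis and nucleic acid sensors), and mitochondrial death factors lie at 0.06 and 0.09.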

How the data were processed

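The authors deposited 1 table of RPKM values, rounded to 2 decimals, for 4 libraries of polyadenylated rat brain RNA, 1 per group. Per the labels' protocols, RNA of several rat brains was pooled (whether separately for each library is not clear) and made into directional libraries. Per the submitters' processing notes, the tools were edgeR, TopHat2 and cutadapt, with no version. Those notes list the human build GRCh38 although the identifiers are rat Ensembl genes, so the build is unsettled. Counting and gene lengths: not given in the sources used here. Columns were matched to samples by age and side code.

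Values were analysed as log2(RPKM + 1), which understates the change of low genes, for genes averaging 1 RPKM or more. Side and age ratios are differences of single libraries. limma (version 3.58.1, R 4.3.3) fitted side plus age with eBayes, two-sided, Benjamini-Hochberg adjusted over all 12160 genes, and was checked on simulated data. Libraries are pools with no replicate. The p-values rest on the difference of side ratios between the ages, largely pooled over genes, and measure no spread between animals. For duplicated symbols in lists, the one with the higher mean was taken.

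Some genes of the symbol choice and 1 related list are not reported here. Every other gene that passed this filter is given by library, and of each other list the 2 highest and 2 lowest by the mean of both side ratios. Members and lists were chosen with earlier results of these data known. The alternatives were a pseudocount of 0.1 or 5 RPKM, no filter, an average of 5 RPKM or more, median-ratio scaling, leaving out mitochondrially encoded genes, eBayes with a trend, and a log2 ratio of 0.5.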

Additional observations from a re-analysis of the deposited data

Results flagged for a closer look

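For 8 of the 34 genes tested the side ratio had opposite signs at the 2 ages, each age being 1 library per side, and the difference between the ages was not tested. Over all genes tested 34.5% had opposite signs, so that the 23.5% found here is no larger share. The ratio was higher at 21 than at 13 months for Bcl2l1 (by 0.63 on the log2 scale), Bcl2l2 (0.57), Bad (0.41) and Casp9 (0.37). At 21 minus 13 months it was -0.72 for Bcl2l13, -0.53 for Casp8ap2, -0.30 for Bcl2 and -0.19 for Birc6.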

How the results depend on the processing

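With 0.1 RPKM added in place of 1, 15 and 13 genes were higher by at least 1 at 13 and 21 months in place of 10 and 8 (9.05% and 7.77% of all genes). With 5 RPKM added, 4 and 1 genes were higher by as much at 13 and 21 months, the medians were 0.32 and 0.32, and limma called 10 genes (6.65% of all genes). These 10 left out Bax, Birc2, Bcl2l12, Bmf, Fadd, Ripk1, Ripk2 and Tradd. With no filter the medians of all 44 genes were 0.43 and 0.33 and limma called 0. A mean of at least 5 RPKM left 18 genes, of which 5 and 4 were higher by at least 1 (6.16% and 5.15% of all genes) and 7 were called (10.5%), 10 of the 18 calls having been filtered out and that of Ripk2 lost. Without mitochondrially encoded genes the 21 month median was 0.47, the 13 month ratio of Ripk1 was 0.996, and 14 of the 18 calls held. Calls over all genes also became fewer in that setting, 9.66% being called higher in place of 13.3%. At a threshold of 0.5 in place of 1, 20 and 19 genes were higher (15.2% and 16.3% of all genes). At that threshold 1 was lower at 21 months, for which the share of all genes was not computed. Under median-ratio scaling all 18 calls held (12.7% of all genes called higher), and a variance trend added Diablo (13.5%). Of 376 comparisons of single ratios with these settings, 24 changed side of the 2-fold line and 0 reversed a ratio past it. The 68 with no filter and the 36 with a mean of at least 5 RPKM could not change, because a filter leaves the ratios as they are. Of the 24, 10 came with 0.1 RPKM added, 13 with 5 RPKM added and 1 without mitochondrially encoded genes. A changed constant cannot reverse the sign of a ratio, so only the rescaled settings could have done so. The limma fit compares the sides within each age, and no other pairing is given in the labels. Without any 1 library that fit has no residual degree of freedom, and the depth behind each value is unknown.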

Other observations

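Among 9 genes of ER stress Atf3, an injury-induced transcription factor gene, alone rose, from 0.99 and 0.90 RPKM on the contralateral side, 13 months first, to 4.69 and 3.45 RPKM on the ipsilateral side. That is 1 of 9 where 13.3% of all genes tested were called higher, and Atf3 passed the filter through its ipsilateral values. Ppp1r15a followed at log2 ratios of 0.29 and 0.45, and Atf4 (-0.11 and -0.04) and Chac1 (-0.62 and 0.03) were lowest.

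Of 9 measured genes for the clearance of dying cells 3 rose, namely Anxa1, Axl and Mertk, where 13.3% of all genes tested were called higher. Anxa1, which encodes annexin A1, was at 85.6 and 38.0 RPKM ipsilaterally and at 8.21 and 9.77 RPKM contralaterally. The engulfment receptor genes Axl (0.54 and 0.56) and Mertk (0.51 and 0.54) had similar ratios at both ages. The related receptor gene Tyro3 (-0.36 and -0.12) and the bridging protein gene Mfge8 (-0.69 and -0.10) were lowest and were not called.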
